A study of Mus musculus with 6 samples.

Results

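Oct4, Sox2 and Nanog are the core transcription factors of the embryonic stem cell, encoded by Pou5f1, Sox2 and Nanog. The 3 genes were taken from the array annotation by symbol, and each had a single probeset that carried its symbol alone, so they were 3 of the 19938 genes measured. The cells were E14, a mouse embryonic stem cell line, grown in serum with leukemia inhibitory factor (LIF), the cytokine that sustains self-renewal, on primary embryonic fibroblasts whose division had been stopped with mitomycin C. VPA cells received 0.5 mM valproic acid for 16 h, NaBu cells received 0.2 mM sodium butyrate for 16 h, and control cells were left untreated, with 2 arrays in each condition. Both compounds inhibit histone deacetylases, and their doses differed. All 6 RNA samples came from the stem cells together with the fibroblasts beneath them, and E14 is 1 line.

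Oct4 is a POU domain factor that pairs with Sox2, an HMG box factor, on adjoining DNA sites, and the homeodomain factor Nanog joins them at many of the same enhancers. Together they activate the genes of the undifferentiated state, including their own, and hold back genes of the embryonic lineages. The level of Oct4 has to stay within narrow bounds, because mouse stem cells without it turn to trophectoderm, whereas Nanog varies between cells of one culture and can be low in cells that still self-renew. Histone deacetylases take acetyl groups off histones, and inhibitors of them raise histone acetylation.

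The DNA before the 3 genes is shown because these promoters hold sites for the factors described with the results. Each window runs from 250 bases before to 50 bases after the most upstream start of that gene in RefSeq's GRCm38.p6 table, on the plus strand, and base 0 is the start. Capitals mark matches, on either strand, to 5 letter patterns. They are the Oct-Sox composite element CATTGTNATGCAAA, the octamer core ATGCAAA and the Sox element CATTGT, which both lie within the composite, the nuclear receptor hexamer AGGTCA and the GC box GGGCGG, which Sp factors bind.
Pou5f1, chr17:35505782-35506081: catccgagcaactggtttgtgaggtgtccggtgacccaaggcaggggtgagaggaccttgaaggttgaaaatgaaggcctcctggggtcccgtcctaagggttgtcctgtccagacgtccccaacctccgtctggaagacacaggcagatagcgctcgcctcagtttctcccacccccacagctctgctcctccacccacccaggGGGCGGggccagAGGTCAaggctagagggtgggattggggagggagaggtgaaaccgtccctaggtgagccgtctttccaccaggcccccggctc
Sox2, chr3:34649745-34650044: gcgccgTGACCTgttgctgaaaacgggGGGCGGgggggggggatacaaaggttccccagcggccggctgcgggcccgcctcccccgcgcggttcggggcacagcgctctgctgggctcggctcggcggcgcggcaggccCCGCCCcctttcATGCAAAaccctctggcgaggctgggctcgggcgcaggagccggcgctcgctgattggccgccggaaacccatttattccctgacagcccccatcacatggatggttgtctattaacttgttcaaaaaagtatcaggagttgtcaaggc
Nanog, chr6:122707239-122707538: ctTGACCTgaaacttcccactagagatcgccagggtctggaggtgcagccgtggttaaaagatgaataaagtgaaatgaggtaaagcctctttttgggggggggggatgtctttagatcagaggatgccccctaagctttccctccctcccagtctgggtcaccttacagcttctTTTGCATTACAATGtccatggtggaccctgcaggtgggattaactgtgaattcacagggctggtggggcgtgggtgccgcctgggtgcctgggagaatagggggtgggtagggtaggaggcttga

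The Nanog window held the composite element on the minus strand at bases -75 to -62, where it reads CATTGTAATGCAAA. That pattern was present in 2 of the 32851 promoter windows of the table, or 0.00609%, and both were the overlapping windows of Nanog. The Pou5f1 window held a GC box at bases -45 to -40 followed by the receptor hexamer at -33 to -28, the arrangement known from this promoter as a binding site of Sp1 and of nuclear receptors. The Sox2 window held the octamer core at -99 to -93 and 2 GC boxes, and those of Sox2 and Nanog each held a receptor hexamer near their far end, at -244 to -239 and -248 to -243. Among all windows of that length the octamer core was present in 4.63%, the Sox element in 12.6%, the receptor hexamer in 16.3% and the GC box in 35.7%. The better known Oct-Sox elements of Pou5f1 and Sox2 lie in enhancers outside these windows. A match is a description of letters only.

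Embryonic stem cell markers were in place on every array, with the lowest single marker at a log2 intensity of 7.42, and arrays of one replicate number resembled each other. Replicate 1 of the 3 conditions is called set 1 below and replicate 2 set 2, because same-numbered arrays deviated together from their group means (r = 0.558 to 0.693 across genes). The labels do not say whether the replicates were separate cultures, so p-values measure the spread between these samples only. The 10 stem cell markers had a mean log2 intensity of 9.86 and 9.72 in VPA cells, 10.26 and 9.97 in NaBu cells and 10.32 and 10.00 in control cells, set 1 first. The summed level of 16 fibroblast markers, as log2, spanned 12.75 to 13.45 in VPA cells, 12.92 to 13.54 in NaBu cells and 12.99 to 13.30 in control cells, and no marker was listed at 0. In each condition the higher fibroblast value was that of set 2, in which the stem cell markers were lower. In such bulk RNA, fewer stem cells and less RNA per stem cell cannot be told apart.

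**Figure D1:**
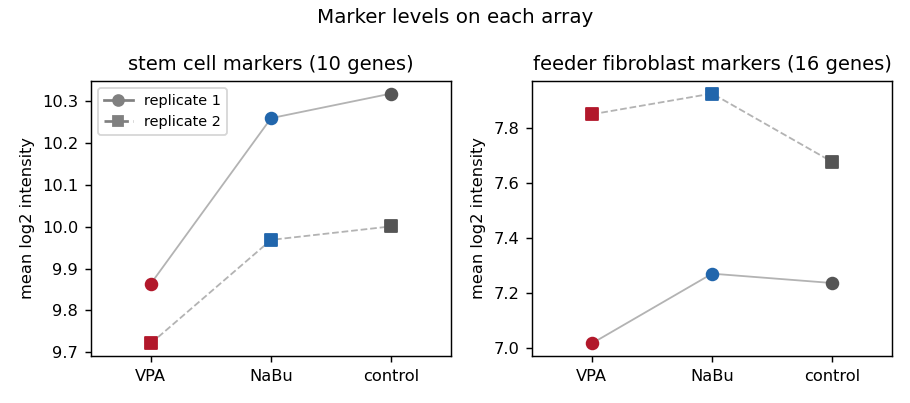
Mean log2 intensity (vertical axis) of 10 stem cell markers and 16 feeder fibroblast markers on each array, by condition, with circles for replicate 1 and squares for replicate 2 joined by lines. In both sets the stem cell markers were lowest in VPA cells (9.86 and 9.72), and in every condition the fibroblast markers were higher in set 2.

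Pou5f1 was the member with the largest difference between VPA and control cells. Its log2 intensity, replicate 1 first, was 11.12 and 11.13 in VPA cells, 11.68 and 11.56 in NaBu cells and 11.90 and 11.63 in control cells. Both VPA arrays lay below the other 4 arrays, and the NaBu and control arrays overlapped. The mean was 11.13 ± 0.013 in VPA cells, 11.62 ± 0.086 in NaBu cells and 11.77 ± 0.19 in control cells (SD, n = 2 each). The VPA arrays were thus 0.019 apart, against 0.27 between the control arrays.

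Sox2 had log2 intensities of 11.58 and 11.48 in VPA cells, 11.63 and 11.11 in NaBu cells and 11.61 and 11.49 in control cells. The VPA and control arrays covered the same range, and the 1 array that stood lower was NaBu replicate 2. Means were 11.53 ± 0.074 in VPA cells, 11.37 ± 0.37 in NaBu cells and 11.55 ± 0.089 in control cells (SD, n = 2 each). No pair of neighbours in this order differed by more than the larger of its SDs.

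Nanog had log2 intensities of 11.04 and 10.79 in VPA cells, 11.70 and 11.03 in NaBu cells and 11.62 and 11.11 in control cells. The VPA arrays lay below both control arrays and overlapped with the NaBu arrays, of which replicate 2 stood between them. Means were 10.91 ± 0.17 in VPA cells, 11.36 ± 0.47 in NaBu cells and 11.37 ± 0.36 in control cells (SD, n = 2 each). Nanog also had the widest gap between the sets, with replicate 2 lower than replicate 1 by a mean log2 difference of -0.47, against -0.25 for Sox2 and -0.12 for Pou5f1. In set 2, where Nanog was lower, the fibroblast markers were higher, and their part in the result was not tested.

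**Figure D2:**
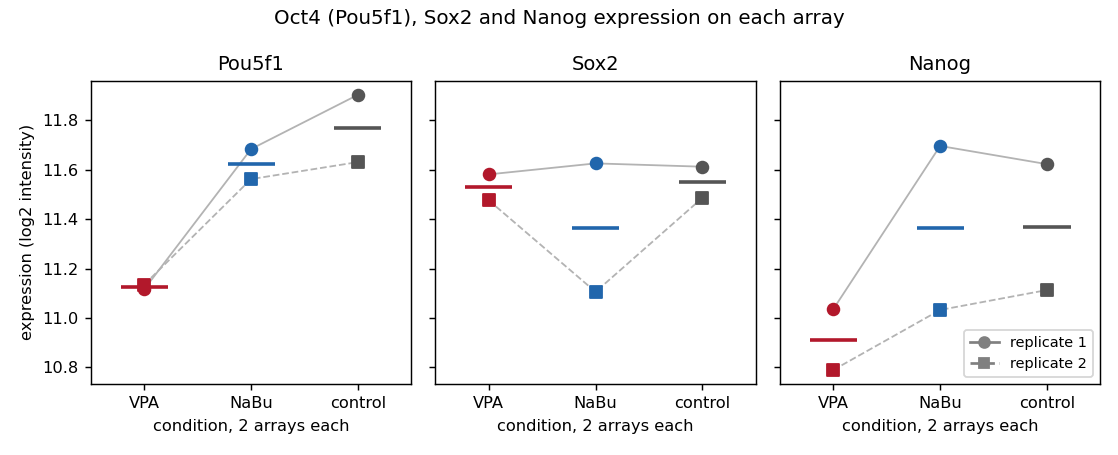
Log2 intensity (vertical axis) of Pou5f1, Sox2 and Nanog on each of the 6 arrays by condition, with circles for replicate 1, squares for replicate 2 and a bar at the mean. Pou5f1 was 11.12 and 11.13 in VPA cells, below all other arrays, Sox2 stood apart only on NaBu replicate 2 (11.11), and Nanog was lower in set 2 of every condition. Heights are not comparable between genes, which have different probes.

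The comparison of VPA with control asked how a low level of a deacetylase inhibitor alters stem cells under self-renewing conditions. For Pou5f1 the log2 difference was -0.64 (95% interval -0.97 to -0.31), or 0.641 times the control level. The difference was -0.79 in set 1 and -0.50 in set 2. It was larger than the spread within either group. Nanog had a log2 difference of -0.46 (95% interval -1.11 to 0.20), or 0.729 times the control level, with -0.59 in set 1 and -0.32 in set 2. The Nanog interval has the gap between the sets in its error. A model that takes that gap out, with the replicate number as its block, gave an interval of -0.75 to -0.16 for Nanog and of -0.91 to -0.37 for Pou5f1.

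Sox2 had a log2 difference of -0.02 with VPA (95% interval -0.48 to 0.43), with -0.03 in set 1 and -0.01 in set 2. That interval, without the block, spans 0.719 to 1.35 times the control level. With the replicate block the log2 interval was -0.33 to 0.29. With this number of arrays, differences within these bounds were not excluded. Within an array, Pou5f1 relative to Sox2 was lower with VPA by a log2 difference of -0.76 in set 1 and -0.49 in set 2. Nanog relative to Sox2 stood at -0.56 and -0.31. Both ratios had the same sign in both sets, but the difference between genes was not tested.

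No member passed the test across all genes for VPA. limma called 0 of 19938 genes (0%) at an adjusted p of 0.05, with 981 at an unadjusted p under 0.05, and the replicate block again called 0, with 2636 unadjusted. The adjusted p was 0.964 for Pou5f1, 0.964 for Nanog and 0.998 for Sox2, and with the block 0.201, 0.229 and 0.969. The unadjusted p of Pou5f1 ranked 27 of 19938. All 3 members were lower in both sets, as were 28% of all genes. Groups did not overlap for Pou5f1 and Nanog, both lower, against 15.6% of all genes in that direction. The smaller of the within-set differences of Pou5f1, -0.50, was matched or exceeded in both sets by 63 genes (0.316%) with Pou5f1 itself counted, and that of Nanog by 349 (1.75%). In set 1 the fibroblast markers had a median log2 difference of -0.17 with VPA and in set 2 of 0.17, and their part in these differences was not tested.

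The comparison of NaBu with control asked the same of the other inhibitor. For Pou5f1 the log2 difference was -0.14 (95% interval -0.48 to 0.19), at -0.22 in set 1 and -0.07 in set 2. Nanog stood at -0.003 (95% interval -0.65 to 0.65), with 0.07 and -0.08. Sox2 stood at -0.18 (95% interval -0.64 to 0.27), with 0.01 in set 1 and -0.38 in set 2, so the mean rested on NaBu replicate 2. In size, each of these differences was below the wider replicate gap of the groups compared. The Pou5f1 difference exceeded the gap of its NaBu arrays (replicate 2 minus replicate 1, -0.12). That of Sox2 exceeded the gap of its control arrays (-0.13). These intervals, without the block, allow levels down to 0.719 times control for Pou5f1, 0.642 for Sox2 and 0.635 for Nanog. With the replicate block the log2 intervals were -0.41 to 0.13 for Pou5f1, -0.49 to 0.12 for Sox2 and -0.30 to 0.29 for Nanog.

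limma called 0 of 19938 genes (0%) for NaBu, with 311 at an unadjusted p under 0.05, and 0 with the block, with 916 unadjusted. The adjusted p was 1.00 for each member without the block, and with it 0.994 for Pou5f1, 0.994 for Sox2 and 0.997 for Nanog. Pou5f1 was lower in both sets, as were 23.1% of all genes. In no member were the NaBu and control arrays apart, whereas 11.2% of all genes had non-overlapping groups with NaBu lower. The fibroblast markers had a median log2 difference with NaBu of 0.04 in set 1 and 0.24 in set 2. Their part in these differences was not tested.

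VPA and NaBu cells were also set against each other, although the doses differed. The carbon chain is branched in VPA and straight in butyrate. For Pou5f1 the log2 difference was -0.50 (95% interval -0.83 to -0.17), at -0.57 in set 1 and -0.43 in set 2. Nanog stood at -0.45 (95% interval -1.10 to 0.20), with -0.66 and -0.24. With the block the Nanog interval was -0.75 to -0.15. Sox2 stood at 0.16 (95% interval -0.29 to 0.62), with -0.04 in set 1 and 0.37 in set 2. limma called 0 of 19938 genes (0%), with 724 at an unadjusted p under 0.05, and 0 with the block, with 2150 unadjusted. The adjusted p was 0.998 for each member, and with the block 0.362 for Pou5f1, 0.683 for Sox2 and 0.366 for Nanog. Groups did not overlap for Pou5f1, with VPA lower, against 14.6% of all genes, and Pou5f1 and Nanog were lower in both sets, as were 28.6% of all genes. Of the 10 stem cell markers 9 were lower in both sets and 1 was higher, with a median of -0.30, so the direction was not particular to these members. Of the 16 fibroblast markers 12 lay below 0 and 4 above. This comparison uses the same VPA and NaBu arrays as the comparisons with control.

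**Figure D3:**
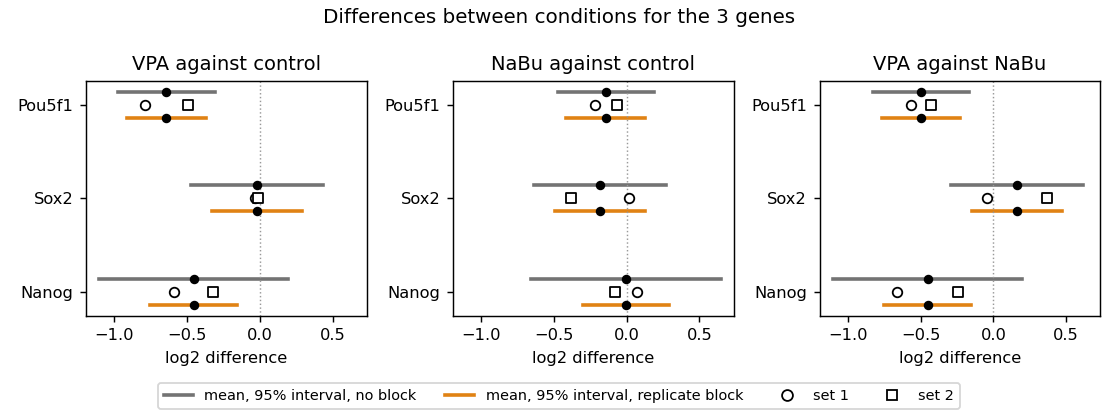
Log2 differences (horizontal axes) of Pou5f1, Sox2 and Nanog in the 3 comparisons, with 95% intervals without the block in grey and with the replicate block in orange, and open circles and squares for the differences within set 1 and set 2. Both intervals of Pou5f1 lay below 0 for VPA against control and VPA against NaBu, and those of Nanog did so with the block only.

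Proteins described as acting on the promoters or enhancers of the 3 genes lay on both sides of 0 with VPA. Of 14 measured regulators, 9 lay below 0 and 5 above, and the median log2 difference was -0.05, against 0.01 over all genes. Groups did not overlap for 4 that were lower and 4 that were higher, against 15.6% and 19.1% of all genes. None passed an adjusted p of 0.05. Nr6a1, the orphan receptor also called GCNF that represses Pou5f1 during differentiation, stood at 0.48 (95% interval -0.00038 to 0.96), with 0.84 in set 1 and 0.12 in set 2. Rarg, a retinoic acid receptor, stood at -0.44 (95% interval -0.91 to 0.03), with -0.54 and -0.34. With the replicate block the intervals left out 0, at 0.065 to 0.89 for Nr6a1 and -0.70 to -0.18 for Rarg, and the adjusted p values over all genes were 0.311 and 0.202. Both bind sites of the receptor hexamer type that is printed in capitals in the Pou5f1 window, and binding was not measured here.

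With NaBu 11 of the 14 regulators lay above 0, with a median of 0.06, against 0.01 over all genes. Nr2f2, the receptor COUP-TFII that is known to repress Pou5f1, stood at 0.38 (95% interval 0.02 to 0.74), with 0.26 in set 1 and 0.50 in set 2. Both of its NaBu arrays lay above both control arrays, as was the case for 12.7% of all genes. With VPA it stood at 0.23, with 0.002 and 0.47, also without overlap. None of the 14 passed an adjusted p of 0.05 with NaBu. Of the 16 fibroblast markers 13 lay above 0 with NaBu and 3 below, with a median of 0.13. Their part in the Nr2f2 value was not tested. The DNA methyltransferase Dnmt3a stood at 0.14.

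Genes described in mouse stem cells as direct targets of the 3 factors were lower with VPA in most cases. Of 10 measured from 12 written, 9 lay below 0, 8 of them in both sets, against 28% of all genes. Groups did not overlap for 7 that were lower and 1 that was higher, against 15.6% and 19.1% of all genes. The median log2 difference was -0.61, with -0.75 in set 1 and -0.28 in set 2, against 0.01 over all genes. None passed an adjusted p of 0.05. Fgf4, Utf1, Tdgf1 and Dppa4 were also among the 10 stem cell markers. Of those markers 9 were lower with VPA in both sets and 1 was higher, with a median of -0.30, so the direction was not particular to targets. Utf1, a chromatin-bound protein whose enhancer holds an Oct-Sox element, had log2 intensities of 9.79 and 9.86 in VPA cells and 10.57 and 10.26 in control cells. Its VPA arrays lay below both control arrays, with a log2 difference of -0.59 (95% interval -0.94 to -0.24). Rest, the repressor of neuronal genes, stood at -0.63 (95% interval -1.11 to -0.15), with -0.72 in set 1 and -0.54 in set 2. Fgf4, the growth factor whose enhancer Oct4 and Sox2 bind together, stood at -0.86, and Tdgf1, a Nodal co-receptor, at 0.02; both were chosen after their values were seen.

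With NaBu 8 of the 10 targets lay below 0, 5 of them in both sets, against 23.1% of all genes. Groups overlapped for all 10, whereas 11.2% of all genes had non-overlapping groups with NaBu lower. Their median was -0.09. Zscan10, a zinc finger factor of stem cells, stood at -0.16 and Rif1, a telomere and replication timing protein, at -0.13, each with an interval that included 0.

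Binding partners of the 3 factors were also lower with VPA in most cases. Of 14 measured, 12 lay below 0, 9 of them in both sets, against 28% of all genes. Groups did not overlap for 6 that were lower and 1 that was higher, against 15.6% and 19.1% of all genes. The median was -0.24, with -0.38 in set 1 and -0.10 in set 2. None passed an adjusted p of 0.05. Sall4 and Esrrb were also among the stem cell markers, which had a median of -0.30. Nr0b1, the orphan receptor Dax1 that binds Oct4 and is itself a target of the network, stood at -0.62 (95% interval -1.04 to -0.21), with -0.73 and -0.52. Smad1, which carries BMP signals, stood at -0.29 (95% interval -0.61 to 0.02, and -0.57 to -0.011 with the replicate block). With NaBu the median of the partners was -0.01 and Nr0b1 stood at -0.08, and Klf4 at -0.07.

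Lineage genes that Oct4, Sox2 and Nanog hold back lay on both sides of 0 with VPA. Of 12 measured, 7 lay above 0 and 5 below, and the median was 0.08. Krt8, a keratin of trophectoderm and other epithelia, stood at 0.75 (95% interval -0.34 to 1.85), with 1.30 in set 1 and 0.21 in set 2. Gata6, a factor of primitive endoderm, stood at -0.34 (95% interval -0.79 to 0.11), with -0.31 and -0.37. With the replicate block the intervals were 0.22 to 1.29 for Krt8 and -0.59 to -0.10 for Gata6, and the adjusted p was 0.257 for both. With NaBu the median was -0.01, Gata3, a trophectoderm factor, stood at 0.21 and Sox1, an early neural gene, at -0.44 (95% interval -0.80 to -0.08). None passed an adjusted p of 0.05 in either comparison. Cdx2, Hand1, Gata3, Sox17, Foxa2 and Pax6 lay below the array medians of 5.71 to 5.79 on every array.

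**Figure D4:**
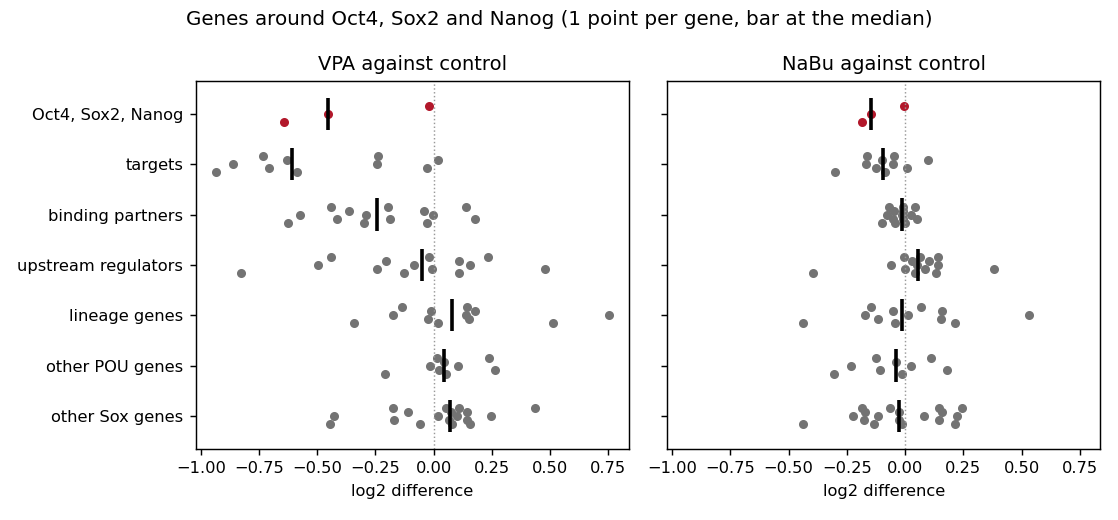
Log2 difference (horizontal axes) of each measured gene in lists around Oct4, Sox2 and Nanog, for VPA against control and NaBu against control, with 1 point per gene and a bar at the median. With VPA the targets had a median of -0.61 and the binding partners of -0.24, and with NaBu these medians were -0.09 and -0.01.

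For each member the genes with the most similar values were found from mean-centred log2 values over the 6 arrays. The measure was the root mean square (RMS) difference from the member, which is the smaller the more alike the genes are. For Pou5f1, whose own RMS around its mean was 0.288, the nearest were the zinc finger gene Zc3h7b (0.032), Utf1 (0.043), AW209491 (0.045), the Groucho corepressor Tle4 (0.048) and the LIM domain adaptor Ldb1 (0.056). For Nanog, with an RMS of 0.330, they were Nr5a2 (0.037), a nuclear receptor that binds the Pou5f1 promoter, the actin-binding gene Dmtn (0.043), the B-Myb gene Mybl2 (0.044), Enox1 (0.048) and Zcchc8 (0.054). Nr5a2 had a log2 difference of -0.50 with VPA and of 0.001 with NaBu, against -0.46 and -0.003 for Nanog. These patterns share the gap between the sets and the low VPA arrays.

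The genes nearest to Sox2, with an RMS of 0.178, were the tektin Tekt4 (0.033), the skin barrier gene Lce1a2 (0.038), Smtnl1 (0.041), the connexin Gjb1 (0.044) and the kinase inhibitor Camk2n2 (0.044). Their log2 intensities ran from 2.35 to 5.41, below the array medians of 5.71 to 5.79. What they shared with Sox2 was a low value on NaBu replicate 2. Pou5f1 and Nanog were 0.203 apart, and Sox2 was 0.328 from Pou5f1 and 0.287 from Nanog. Many genes were closer. By nearness to Pou5f1, Nanog ranked 1083 and Sox2 10500 among 19937 genes, and by nearness to Nanog, Pou5f1 ranked 1058 and Sox2 3935. These ranks count all genes, with no symbols left out. With 6 arrays such likeness is a description.

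**Figure D5:**
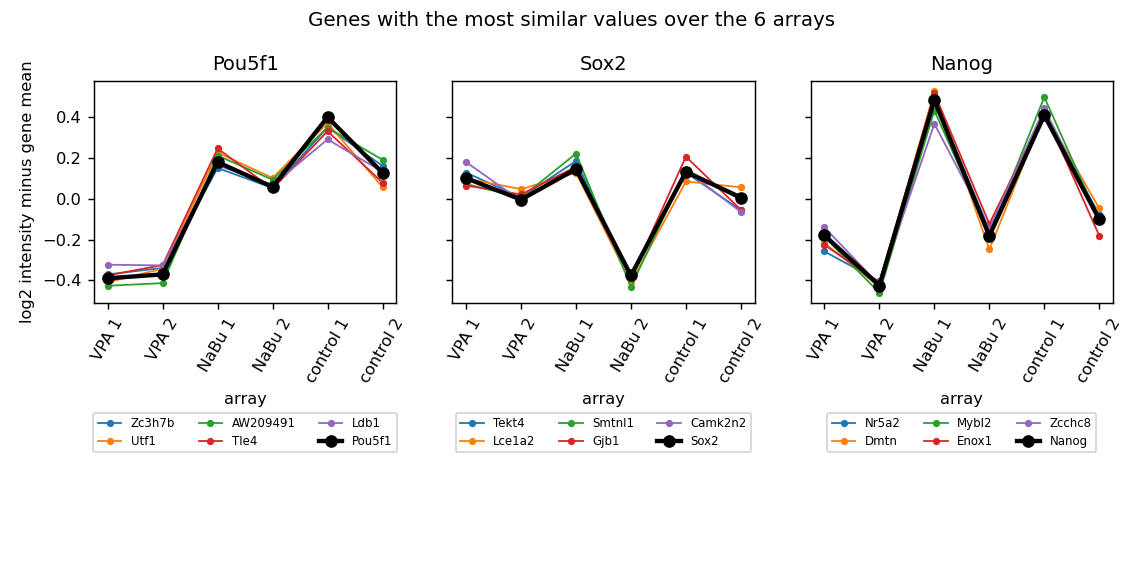
Log2 intensity minus the gene's mean (vertical axis) on the 6 arrays for Pou5f1, Sox2 and Nanog (thick black lines) and the 5 genes nearest to each (coloured lines), some symbol types left out. Pou5f1 and its neighbours were low on both VPA arrays, Nanog and its neighbours were low on VPA arrays and in set 2, and Sox2 and its neighbours were low on NaBu replicate 2.

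A probeset for the related sequence Pou5f1-rs4, which is not a member, had log2 intensities of 3.41 and 3.34 in VPA cells, 3.64 and 3.40 in NaBu cells and 3.74 and 3.52 in control cells. Pou5f1 and Nanog have pseudogene copies, and whether such transcripts reached the probesets of the members was not tested.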

How the data were processed

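Each array gave 1 column of log2 expression per probeset, which the authors deposited after RMA. Per the submitters' processing notes, the program was Affymetrix Expression Console 1.1. Its settings were not given in the sources used here. RMA scales arrays to a common distribution, so levels are relative. Of 35556 probesets, 21789 had 1 symbol in the platform annotation, 1621 had several and the rest were not listed there. The probeset with the highest mean stood for each of the 19938 genes. Promoter sequences are RefSeq's.

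limma 3.58.1 in R 4.3.3 (lmFit, eBayes) was fitted to all genes with 1 mean per group and 3 residual degrees of freedom. Adjustment was by Benjamini-Hochberg, at 0.05. Intervals are 95% intervals of that model. A replicate block (2 residual degrees of freedom) was an alternative, since deviations of same-numbered arrays correlated (r = 0.558, 0.693 and 0.567). Named genes were the members, per list the 2 largest moderated statistics for each compound, and the 5 nearest genes by pattern. The nearest genes were taken after the symbol types listed with them had been left out. The number of arrays limits the precision. The procedure was tested on simulated data with the same noise level for all genes and planted differences larger than those of the members. That test does not show what size of difference is detectable here. The members and lists were chosen with earlier results of these data known.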

Additional observations from a re-analysis of the deposited data

How the results depend on the processing

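The test called 0 genes in the 3 comparisons under quantile normalization, median centring, a variance trend with robust fitting, the filter at the median level, probeset means, fits on 4 arrays and the replicate block with all arrays. Pou5f1 and Nanog stayed lower with VPA than in control or NaBu cells under each of these. Sox2 in VPA against control was 0.027 after quantile normalization. Leaving out 1 array without the block gave -0.78 to -0.51 for Pou5f1, -0.71 to -0.20 for Nanog (-0.20 without control replicate 1) and -0.084 to 0.042 for Sox2 in VPA against control. It gave -0.28 to -0.0081 for Pou5f1, -0.34 to 0.33 for Nanog and -0.44 to 0.076 for Sox2 in NaBu against control. In VPA against NaBu it gave -0.56 to -0.44 for Pou5f1, -0.78 to -0.12 for Nanog and -0.097 to 0.42 for Sox2. With the replicate block, leaving out 1 array gave -0.75 to -0.53 for Pou5f1, -0.63 to -0.29 for Nanog and -0.13 to 0.088 for Sox2 in VPA against control, with 0.088 without VPA replicate 1 and 0.073 without control replicate 2. In NaBu against control it gave -0.25 to -0.034 for Pou5f1, -0.15 to 0.14 for Nanog (0.024 without control replicate 1) and -0.39 to 0.019 for Sox2, and in VPA against NaBu -0.61 to -0.39 for Pou5f1, -0.62 to -0.28 for Nanog and -0.039 to 0.37 for Sox2. The number of genes called then ranged from 0 to 774 for VPA against control (7 without control replicate 2), 0 to 1 for NaBu against control and 0 to 363 for VPA against NaBu. Pou5f1 passed in 1 of these fits, without VPA replicate 2 (-0.75, adjusted p 0.0278, against 0.201 with all arrays and the block), in which 774 genes passed. Such fits have 1 residual degree of freedom and assume that the lone array varies like the other groups; the cause was not tested.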

Other observations

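Other members of the POU and Sox families were described as well. With VPA 12 of the 18 other Sox genes lay above 0 and the median log2 difference was 0.07, and none passed an adjusted p of 0.05. Sox10, a neural crest factor, stood at 0.43 (95% interval 0.11 to 0.76), and Sox12 at -0.45 (95% interval -0.87 to -0.02). With NaBu the median was -0.03, Sox1, which belongs to the same subgroup as Sox2, stood at -0.44 and Sox18, an endothelial factor, at -0.18. Sox3, the other gene of that subgroup, stood at 0.07 with VPA and -0.18 with NaBu, and was chosen after its values were seen. The log2 intensities of Sox10 (4.80 to 5.35) and Sox18 (5.36 to 5.58) lay below the array medians of 5.71 to 5.79 on every array. So did those of Sox5, Sox6, Sox7, Sox8, Sox14, Sox17 and Sox30.

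Of the 9 measured POU genes other than Pou5f1, 7 lay above 0 with VPA, none had the same sign in both sets, and the median was 0.04. Pou4f1, a sensory neuron factor, stood at 0.24, with 0.52 in set 1 and -0.04 in set 2, and Pou2f3 at -0.21. With NaBu the median was -0.04, Pou4f3, a hair cell factor, stood at -0.30 and Pou6f1 at 0.18. None passed an adjusted p of 0.05. All of the 9 except Pou3f1 lay below the array medians of 5.71 to 5.79 on every array, so the counts and medians rest mostly on low values.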
